A study of Mus musculus with 4 samples.

Results

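The genes of 7 amino acid transporter families were described in mouse small intestinal (SI) organoids that carried extra miR-181a-5p. Members were all genes with a symbol of Slc1a, Slc3a, Slc6a, Slc7a, Slc36a, Slc38a or Slc43a followed by a number, and this rule found 61 of the 55487 genes listed. SI organoids are epithelial cultures grown from intestinal crypts, and here a lentivirus brought in a miRNA mimic control or the miR-181a-5p mimic, and puromycin at 2 µg/ml selected the cells that carried it. A mimic supplies additional mature miRNA. The control group held 2 RNA-seq libraries (control replicates 1 and 2) and the mimic group held 2 (mimic replicates 3 and 4). The labels do not give the strain, age or sex of the mice, the time in culture, or whether a group's libraries were transduced separately. The p-values below therefore measure only the spread between these libraries, which may be technical. Libraries held between 31104884 and 38111731 expected counts, the read numbers per gene estimated by RSEM. Between 0.232 and 0.283% of a library's counts fell on the 61 genes.

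Enterocytes take up free amino acids from the lumen through carriers of the apical membrane and pass them to the blood through carriers of the basolateral membrane. No single carrier handles all amino acids, so the families divide the work by charge and by driving force. Slc1a and Slc6a carriers use the sodium gradient, Slc36a carriers use protons, and Slc38a carriers move glutamine and small neutral amino acids with sodium. Of the Slc43a family, Slc43a1 and Slc43a2 let neutral amino acids leave by facilitated diffusion. Most Slc7a proteins are light chains that reach the membrane only with a heavy chain of the Slc3a family, either rBAT (Slc3a1) at the apical side or 4F2hc (Slc3a2) at the basolateral side. The cationic carriers of Slc7a, such as Slc7a1 and Slc7a2, work without a heavy chain. A miRNA lowers mRNAs that pair with its seed, most often in the 3′ UTR.

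The mature miR-181a-5p sequence is shown because its seed defines the sites sought in the transporter mRNAs. RefSeq (GRCm38.p6) gives the same mature sequence for Mir181a-1 at chr1:137966468-137966490 and for Mir181a-2 at chr2:38852741-38852763, both on the plus strand. Bases 2 to 8, the seed, are in capitals.
mmu-miR-181a-5p: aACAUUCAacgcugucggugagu

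A match to the seed reads TGAATGT on the mRNA strand. The longest annotated 3′ UTR held such a match in 10 of the 35 transporter genes that could be tested (28.57%) and in 2362 of 12847 tested genes with an annotated 3′ UTR (18.39%). UTR length was not taken into account in this count. The windows below show the match in capitals with its flanks, in the direction of the mRNA, for the cationic carriers Slc7a2 and Slc7a1, the cystine carrier Slc7a11, the glutamine carrier Slc38a2, the taurine carrier Slc6a6 and the apical neutral carrier Slc6a19. In Slc7a1 and Slc7a11 the match is followed by an A, the longer form of the site. Coordinates are on GRCm38, on the plus strand for Slc7a2 and Slc6a6 and on the minus strand for the others. The 3′ UTR of Slc1a3 held no match.
Slc7a2, chr8:40919023-40919051: gcacgttggaaacaTGAATGTctgtaaag
Slc7a1, chr5:148328530-148328558: ctcagagtcagcgcTGAATGTatgtcatg
Slc7a11, chr3:50368826-50368854: taatgcttgtctctTGAATGTaaatgaac
Slc38a2, chr15:96689749-96689777: tttatgattttactTGAATGTgcctaacg
Slc6a6, chr6:91755858-91755886: agggatgggacgtcTGAATGTctggtgag
Slc6a19, chr13:73681528-73681556: ggctgtaatatgtgTGAATGTgtgagtac

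Of the 61 genes, 35 had enough counts to be tested. The 26 others included 11 listed at 0 in all 4 libraries and 15 with at most 14.03 counts in any library. A count of 0 allows up to 3 counts, or 0.0787 to 0.0964 CPM (counts scaled to the library total) by library, and these limits cover counting error only. Among the genes not tested were Slc6a14 (0, 0, 3 and 0 counts in control replicates 1 and 2 and mimic replicates 3 and 4) and Slc6a18 (1, 1, 1 and 0 counts), both apical carriers, and Slc38a3 (0, 2, 0 and 1 counts), a basolateral glutamine carrier. The brain GABA, noradrenaline and betaine carriers of the Slc6a family also fell in this group. The glycine carrier Slc6a5, singled out after its values were seen, had 8 and 5 counts in the controls against 0 and 0 with the mimic.

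The question was whether these carriers differed between organoids with the miR-181a-5p mimic and with the control mimic. Of the 35 genes tested, 2 fell with the mimic and 0 rose (edgeR quasi-likelihood test, Benjamini-Hochberg adjusted p under 0.05 over 17155 genes). Over all genes tested, 3.57% changed, with 2.29% lower and 1.28% higher, so the members' share of 5.71% rests on 2 genes. Both genes that fell also passed a fold change of 2, which 1.47% of all genes did in this direction and 0.589% in the other. At an unadjusted p under 0.05, 16 of the 35 passed, 7 higher and 9 lower, beside 24.8% of all genes (11.8% higher, 13% lower). The 2 groups did not overlap in normalized CPM, the counts scaled to library size, for 21 of the 35, with 11 higher and 10 lower, beside 58.4% of all genes. The median log2 fold change, mimic over control, was 0.10 over the 35 and -0.01 over all genes tested. It was above 0 for 18 of the 35 (48.6% of all genes). The fold change lay within a factor of 2 for 33 of the 35, beside 15921 of all 17155 genes tested. For 23 of the 35 its whole 95% interval also lay within a factor of 2, beside 11427 of the 17155. The number called depended on single libraries: it was 10 without control replicate 2 (5 higher, 5 lower), where the number over all genes was 2326 of 17155, and 4 without control replicate 1, where it was 615.

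Slc7a2 encodes CAT2, a carrier of arginine, lysine and ornithine. Its level was 10.9 and 7.81 TPM (a level per transcript length, with an equal total in all libraries) in the controls and 3.57 and 3.97 TPM with the mimic. Both mimic libraries were below both controls, and the mimic libraries lay closer together than the controls. In normalized CPM the mean was 45.5 ± 10.2 normalized CPM in the controls and 18.6 ± 0.39 with the mimic (SD, n = 2 each). Slc7a2 fell 2.45-fold, a log2 fold change of -1.30 (SE 0.16, 95% interval -1.67 to -0.92, adjusted p = 0.0114 by edgeR). With any 1 library left out the log2 fold change was between -1.51 and -1.05 and the call was kept. In limma fits on log2 TPM, by contrast, its adjusted p was between 0.0857 and 0.314. The gene lies at chr8:40862396-40922308 on the plus strand of GRCm38, its exons overlap Gm26584 on the other strand, and its 3′ UTR of 5774 bases holds the single seed match shown above. In bulk RNA, fewer cells of a type and less RNA per cell cannot be told apart, for this gene and those that follow. Summed over 14 enterocyte markers the level was 3708 and 5031 TPM in the controls and 3204 and 3238 TPM with the mimic. Most of this difference lay in Fabp1 and Anpep. Fabp1 was at 948 and 1749 TPM against 843 and 636 TPM, and Anpep at 656 and 448 TPM against 103 and 162 TPM. Sis went the other way, at 492 and 593 TPM against 626 and 646 TPM. Summed over 5 genes of the proximal small intestine the level was 199 and 316 TPM against 119 and 140 TPM. Most of the latter difference lay in Cybrd1 and Slc40a1. Cybrd1 was at 63.5 and 138 TPM against 12.5 and 37.9 TPM. Slc40a1 was at 20.9 and 49.2 TPM against 0.14 and 0.64 TPM. Of these 5 genes 4 had a log2 fold change below 0, and Lct had one of 0.69 (adjusted p = 0.187 by edgeR). Of the 14 enterocyte markers 5 had a log2 fold change above 0 and 9 below, and the fructose carrier Slc2a5 was the one that rose (log2 fold change 2.06, adjusted p = 0.0103 by edgeR). The part of these markers in the Slc7a2 result was not tested.

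Slc1a3 encodes EAAT1 (GLAST), a sodium-driven glutamate and aspartate carrier known mainly from glia. It had 188 and 67 counts in the controls against 3 and 11 with the mimic, which is 1.62 and 0.82 TPM against 0.07 and 0.13 TPM. The groups did not overlap, the level was low in every library, and the gene passed the filter on low counts through the controls alone. In normalized CPM the mean was 3.53 ± 1.94 in the controls and 0.20 ± 0.15 with the mimic (SD, n = 2 each). The log2 fold change was -4.08 (SE 0.62, 95% interval -5.52 to -2.64, adjusted p = 0.0202 by edgeR). It ranged from -3.36 without control replicate 1 to -5.17 without mimic replicate 4, and stayed called without any 1 library. Without a filter on low counts the adjusted p was 0.0571 by edgeR. In limma on log2(TPM + 1) without a filter the log2 fold change was -0.99 and the adjusted p was 0.314. Of 9 other ways to process all 4 libraries, 6 could fit Slc1a3 and 4 called it. The gene lies at chr15:8634124-8710764 on the minus strand. Among 6 markers of neurons and glia 4 could be tested, and 1 of them, the glial gene S100b, also fell, from 1.31 and 0.92 TPM to 0.25 and 0.10 TPM (log2 fold change -2.73, adjusted p = 0.034 by edgeR). S100b had 59 and 33 counts in the controls against 9 and 4 with the mimic, and likewise passed the filter on low counts through the controls alone. The 6 markers summed to 2.42 to 3.74 TPM in the controls and 2.28 to 2.43 TPM with the mimic, and Gfap was at or near 0 in every library. The part of such cells in the Slc1a3 result was not tested.

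**Figure D1:**
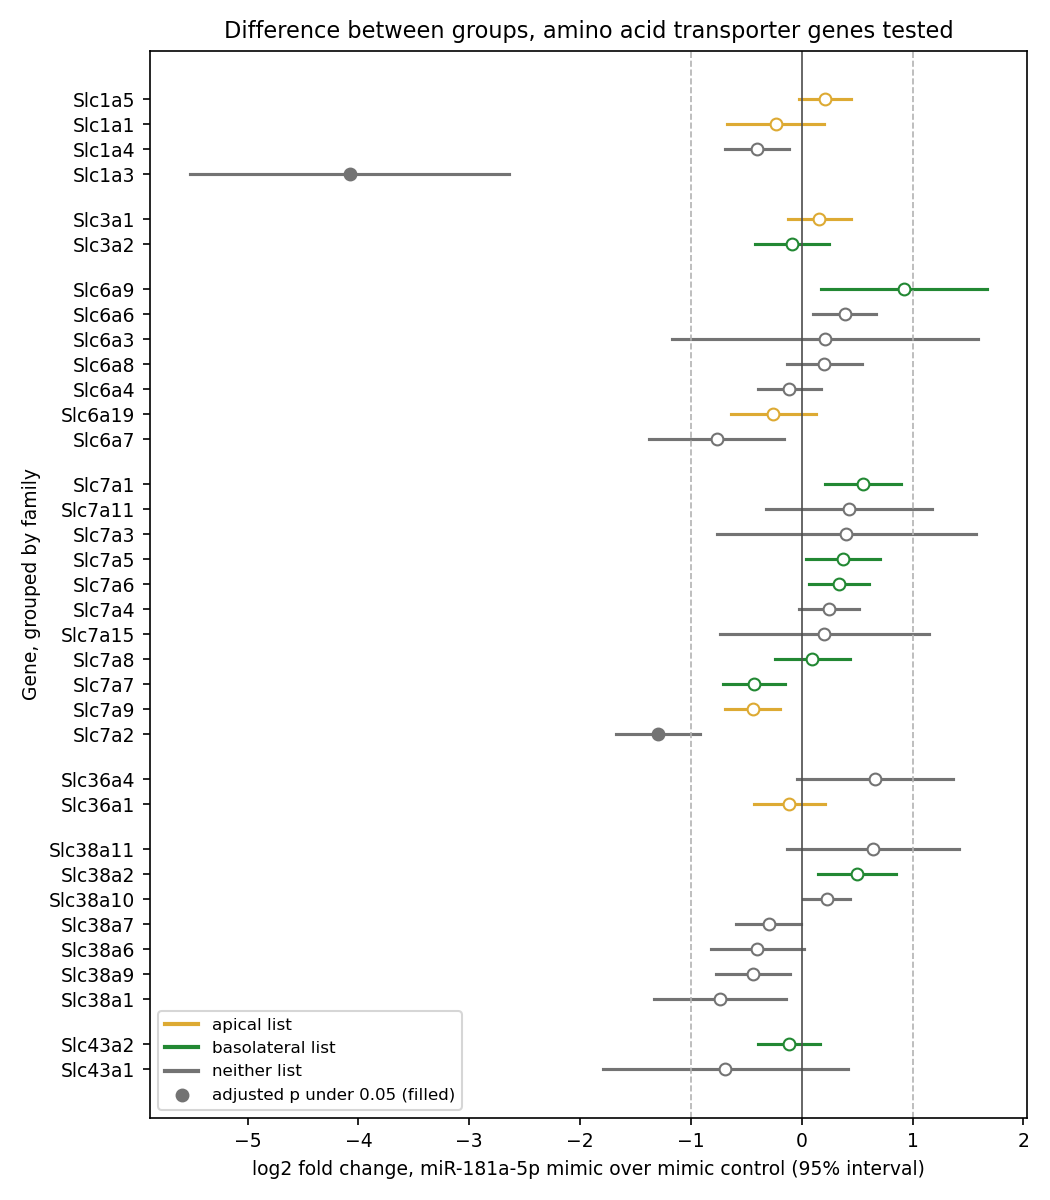
Log2 fold change (mimic over control, horizontal axis) with its 95% interval for the 35 transporter genes tested, grouped by family (vertical axis); colour gives the membrane list, filled points have an adjusted p under 0.05 and dashed lines mark a factor of 2. Only Slc1a3, at -4.08, and Slc7a2, at -1.30, are filled, and 33 of the 35 points lie between the dashed lines.

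The other cationic carriers of the Slc7a family did not pass the test. Slc7a1 encodes CAT1, the widely expressed arginine and lysine carrier, and belongs to the basolateral list. It was at 24.7 and 33.0 TPM in the controls and 43.4 and 43.6 TPM with the mimic. Both mimic libraries were above both controls, but its log2 fold change of 0.55 (SE 0.15) had an adjusted p of 0.0816. It was among the genes called by edgeR's exact test and by DESeq2. Its 3′ UTR holds the longer form of the seed match, as does that of Slc7a11, which exchanges cystine for glutamate and was at 2.17 and 4.80 TPM in the controls and 4.93 and 4.23 TPM with the mimic (log2 fold change 0.43, adjusted p = 0.448). CAT3 (Slc7a3) was at 0.43 TPM or less in every library. Set side by side in each library, the TPM of Slc7a1 was 2.28 and 4.23 times that of Slc7a2 in the controls, and 12.2 and 10.98 times with the mimic. This ratio and those below were chosen after the values were seen and were not tested.

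Of the 10 tested genes with a seed match, only Slc7a2 was called, beside 3.57% of all genes tested. The share called among the 2362 tested genes with a match was not computed. For 6 of the other 9 transporter genes the log2 fold change was above 0 and for 3 it was below, beside 48.6% above 0 over all genes tested. Slc1a5, Slc36a1, Slc38a9 and Slc6a3 make up the genes with a match that are not printed above.

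The apical list held 8 carriers taken from textbook knowledge of the enterocyte brush border, and 6 could be tested. None was called, 2 had a log2 fold change above 0 and 4 below, and the median was -0.17, beside -0.01 for all genes. Slc7a9 (b0,+AT), the rBAT light chain that takes up cystine and cationic amino acids, came nearest to the threshold. It was at 32.8 and 35.0 TPM in the controls and 26.04 and 26.7 TPM with the mimic, so the groups did not overlap. The log2 fold change was -0.44 (SE 0.11, 95% interval -0.69 to -0.20) with an adjusted p of 0.0652.

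Slc3a1 (rBAT), the heavy chain of Slc7a9, was at 46.1 and 56.2 TPM in the controls and 53.4 and 66.4 TPM with the mimic, and these ranges overlapped. Its log2 fold change was 0.16 (95% interval -0.13 to 0.45). The TPM of Slc7a9 was 0.711 and 0.623 times that of Slc3a1 in the controls and 0.488 and 0.402 times with the mimic. Exons of Slc3a1 overlap Prepl on the other strand, which had between 1732 and 1980 counts in each library, and whether the counting used strand is not given in the sources used here.

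Slc6a19 (B0AT1), the main sodium-driven carrier of neutral amino acids in the brush border, was at 26.7 and 33.6 TPM in the controls and 27.8 and 25.0 TPM with the mimic. The groups overlapped, and the 95% interval of its log2 fold change ran from -0.64 to 0.13.

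Slc1a5 (ASCT2), an exchanger of glutamine and other neutral amino acids, was at 74.8 and 85.4 TPM in the controls and 82.4 and 107 TPM with the mimic. The groups overlapped in TPM though not in normalized CPM, and its log2 fold change was 0.21 (adjusted p = 0.241). The glutamate carrier Slc1a1 (EAAT3) was at 10.1 and 8.86 TPM against 6.79 and 10.7 TPM, with a 95% interval from -0.67 to 0.20 on the log2 scale. The proton-coupled carrier Slc36a1 (PAT1) was at 6.64 and 6.40 TPM against 5.68 and 6.29 TPM, with an interval from -0.43 to 0.21. Both overlapped between groups in normalized CPM.

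The basolateral list held 10 carriers, of which 9 could be tested and none was called. The log2 fold change was above 0 for 6 and below 0 for 3, with a median of 0.34. In normalized CPM, 5 of the 9 were higher in both mimic libraries than in both controls and 1 was lower, beside 28.9% and 29.5% of all genes tested. Among the 5 were Slc7a1, above, and Slc38a2 (SNAT2), a glutamine and alanine carrier known to be induced when amino acids are scarce. Slc38a2 was at 50.4 and 68.4 TPM in the controls and 91.0 and 84.3 TPM with the mimic. Its log2 fold change was 0.50 (SE 0.15, 95% interval 0.14 to 0.85, adjusted p = 0.108 by edgeR).

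The glycine carrier Slc6a9 (GlyT1) had the largest estimate of the basolateral list. It was at 2.96 and 6.60 TPM in the controls and 7.63 and 9.55 TPM with the mimic, so control replicate 1 stood below the other 3 libraries. The log2 fold change was 0.92 (SE 0.32, 95% interval 0.17 to 1.67, adjusted p = 0.139). It was between 0.43 and 1.62 when 1 library was left out. Exons of Slc6a9 overlap Ccdc24 and B4galt2 on the other strand, which had at most 31.77 and 9.82 counts.

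The estimates for the light chains of 4F2hc had both signs. Slc7a5 (LAT1), an exchanger of large neutral amino acids, was at 16.5 and 19.6 TPM in the controls and 26.3 and 21.9 TPM with the mimic (log2 fold change 0.37, adjusted p = 0.17). Slc7a8 (LAT2), the neutral exchanger typical of the basolateral membrane, was at 18.8 and 22.4 TPM against 24.7 and 20.97 TPM, and its 95% interval ran from -0.24 to 0.43.

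Slc7a7 (y+LAT1) and Slc7a6 (y+LAT2) both exchange cationic for neutral amino acids with sodium. Slc7a7 was at 44.0 and 39.3 TPM in the controls and 31.0 and 31.8 TPM with the mimic, with a log2 fold change of -0.43 (SE 0.12, adjusted p = 0.0884). Slc7a6 was at 11.6 and 12.1 TPM against 12.5 and 14.3 TPM, with a log2 fold change of 0.34 (SE 0.12, adjusted p = 0.138). Groups did not overlap for either gene, and their order between groups was opposite. The TPM of Slc7a7 was 3.78 and 3.26 times that of Slc7a6 in the controls and 2.48 and 2.23 times with the mimic. Exons of Slc7a7 overlap Oxa1l on the other strand, which had between 2263 and 3284 counts in each library.

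Slc3a2 (4F2hc), the heavy chain that these light chains share, was at 72.6 and 89.9 TPM in the controls and 82.2 and 74.6 TPM with the mimic. The groups overlapped, and the log2 fold change was -0.09 with a 95% interval from -0.42 to 0.24. Summed over its light chains Slc7a5, Slc7a6, Slc7a7, Slc7a8, Slc7a10 and Slc7a11, the TPM was 1.28 and 1.09 times that of Slc3a2 in the controls and 1.21 and 1.25 times with the mimic, so this ratio overlapped between groups. Slc43a2 (LAT4), a route by which neutral amino acids leave the cell, was at 17.7 and 15.8 TPM against 14.1 and 17.4 TPM, with an interval from -0.40 to 0.16.

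**Figure D2:**
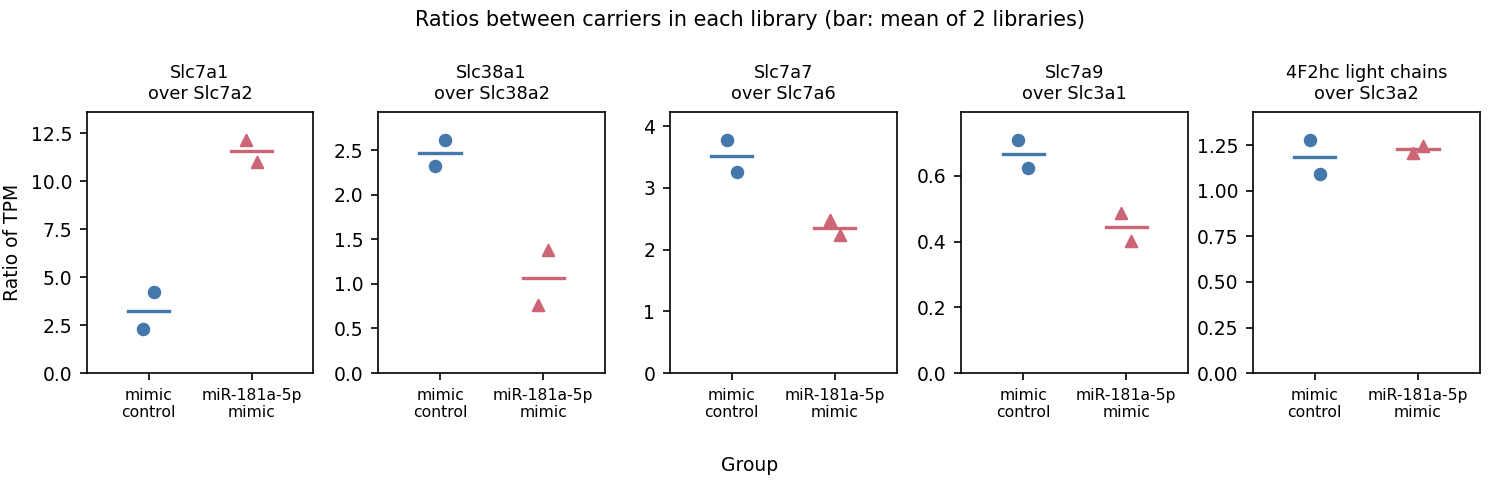
Ratio of TPM between carriers (vertical axis, linear from 0) in each library of the mimic control and miR-181a-5p mimic groups (horizontal axis), with a bar at the mean of 2 libraries. The ratio of Slc7a1 to Slc7a2 is 2.28 and 4.23 in the controls against 12.2 and 10.98 with the mimic, and the ratio of the 4F2hc light chains to Slc3a2 overlaps between groups.

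Set against each other, the apical and basolateral lists had medians of -0.17 and 0.34 on the log2 scale. With 1 library left out, the apical median was between -0.15 and -0.06 and the basolateral median between 0.18 and 0.40. In the limma fits on log2 TPM the apical median was between -0.14 and -0.07 and the basolateral median between 0.15 and 0.17. Without a filter on low counts they were -0.16 and 0.22 by edgeR. The median SD between replicates on the log2 scale was 0.16 for the apical genes tested and 0.21 for the basolateral. No test of the difference between the lists was made. Summed over the list, the apical carriers were at 197 and 226 TPM in the controls and 202 and 242 TPM with the mimic, which overlapped. The basolateral carriers summed to 259 and 307 TPM in the controls and 333 and 318 TPM with the mimic, which did not. The ratio of basolateral to apical TPM was 1.32 and 1.36 in the controls against 1.65 and 1.32 with the mimic, so mimic replicate 4 fell within the controls. The 43 members in neither list, 20 of them tested, had a median of 0.05 and included both genes that fell.

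Compared by family, Slc38a had the highest summed TPM in every library and Slc36a the lowest. The 11 Slc38a genes summed to 226 and 307 TPM in the controls and 218 and 261 TPM with the mimic. All 7 that were tested had groups that did not overlap in normalized CPM, 3 higher and 4 lower with the mimic, beside 58.4% of all genes tested (28.9% higher, 29.5% lower), and none was called. The median was -0.30. Slc38a1 (SNAT1), a glutamine carrier of growing cells, was at 117 and 179 TPM in the controls and 69.0 and 116 TPM with the mimic, so mimic replicate 4 lay just under control replicate 1. Its log2 fold change was -0.74 (SE 0.26, adjusted p = 0.138) and lay between -1.08 and -0.36 with 1 library left out. The TPM of Slc38a1 was 2.32 and 2.62 times that of Slc38a2 in the controls and 0.758 and 1.38 times with the mimic. Slc38a9, a lysosomal arginine sensor with a seed match that was singled out after its values were seen, was at 10.7 and 9.10 TPM against 7.29 and 6.67 TPM (log2 fold change -0.44, adjusted p = 0.121).

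The 15 Slc7a genes summed to 177 and 193 TPM in the controls and 192 and 189 TPM with the mimic. Of the 11 tested, 8 had a log2 fold change above 0 and 3 below, with a median of 0.25, and Slc7a2 was the member that fell. Slc7a7, Slc7a1 and Slc7a9 had the highest TPM of the family, and Slc7a2 made up a small share of its sum.

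The 19 Slc6a genes, 7 of them tested, were at 151 and 175 TPM in the controls and 188 and 196 TPM with the mimic, and this was the family whose summed TPM did not overlap between groups. Slc6a6, the taurine carrier, was the family's highest member. It was at 72.0 and 82.3 TPM in the controls and 103 and 106 TPM with the mimic, and both mimic libraries stood above both controls. The log2 fold change of Slc6a6 was 0.39 (SE 0.12, 95% interval 0.11 to 0.67) with an adjusted p of 0.113. The creatine carrier Slc6a8 and the serotonin carrier Slc6a4 overlapped between groups, with log2 fold changes of 0.20 and -0.11. The proline carrier Slc6a7 was at 5.73 and 3.70 TPM against 2.25 and 3.42 TPM (log2 fold change -0.77, adjusted p = 0.131). The genes Slc6a8, Slc6a4 and Slc6a7 were chosen after their values were seen.

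The remaining families overlapped between groups in summed TPM. The Slc1a family was at 106 and 120 TPM in the controls and 106 and 136 TPM with the mimic, most of it from Slc1a5. The 2 heavy chains of Slc3a summed to 119 and 146 TPM against 136 and 141 TPM. Slc43a, nearly all from Slc43a2, was at 18.3 and 16.1 TPM against 14.2 and 17.7 TPM. Slc36a, nearly all from Slc36a1, was at 6.90 and 6.65 TPM against 6.12 and 6.73 TPM.

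**Figure D3:**
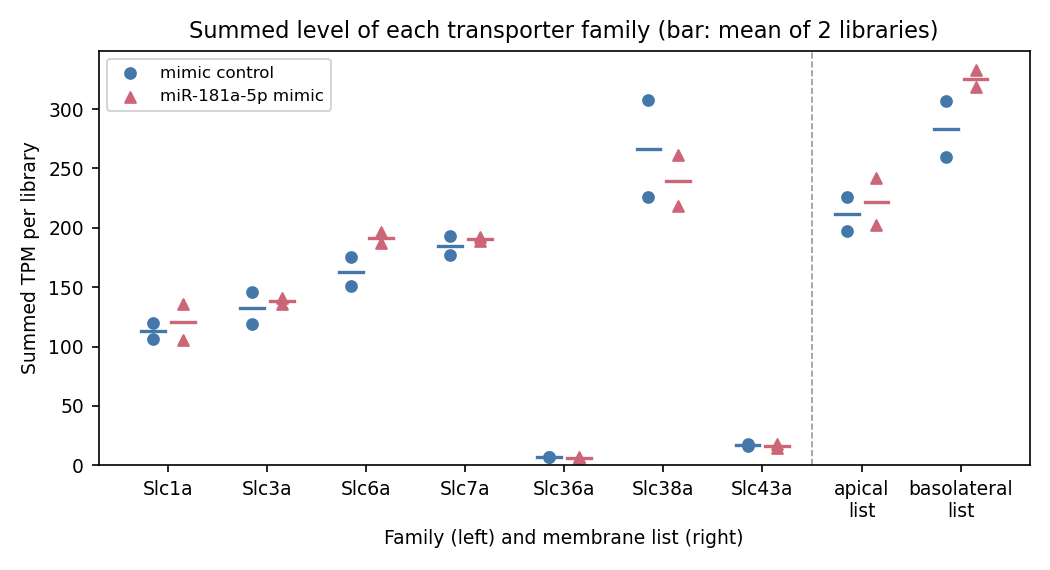
Summed TPM per library (vertical axis, linear from 0) for the 7 families and the apical and basolateral lists (horizontal axis), with circles for mimic control, triangles for miR-181a-5p mimic and a bar at the mean of 2 libraries. The groups do not overlap for Slc6a, at 151 and 175 against 188 and 196 TPM, nor for the basolateral list.

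By level, 30 of the 61 genes had a mean of at least 1 TPM and 20 of at least 10 TPM. The same 6 genes, namely Slc38a1, Slc1a5, Slc3a2, Slc6a6, Slc38a2 and Slc3a1, headed the order in every library and held 53.8 and 58.2% of the members' TPM in the controls against 55.9 and 58.5% with the mimic. Their order changed between libraries. Slc38a1 ranked 1st in both controls and in mimic replicate 4 but 5th in mimic replicate 3, where Slc6a6 ranked 1st. Slc3a1 ranked 6th in all 4 libraries. Slc7a1 ranked 12th and 11th in the controls and 7th in both mimic libraries, while Slc7a7 ranked 7th in both controls and 9th and 10th with the mimic. Summed over all members the level was 804 and 965 TPM in the controls and 860 and 948 TPM with the mimic, and the mimic libraries lay within the controls.

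**Figure D4:**
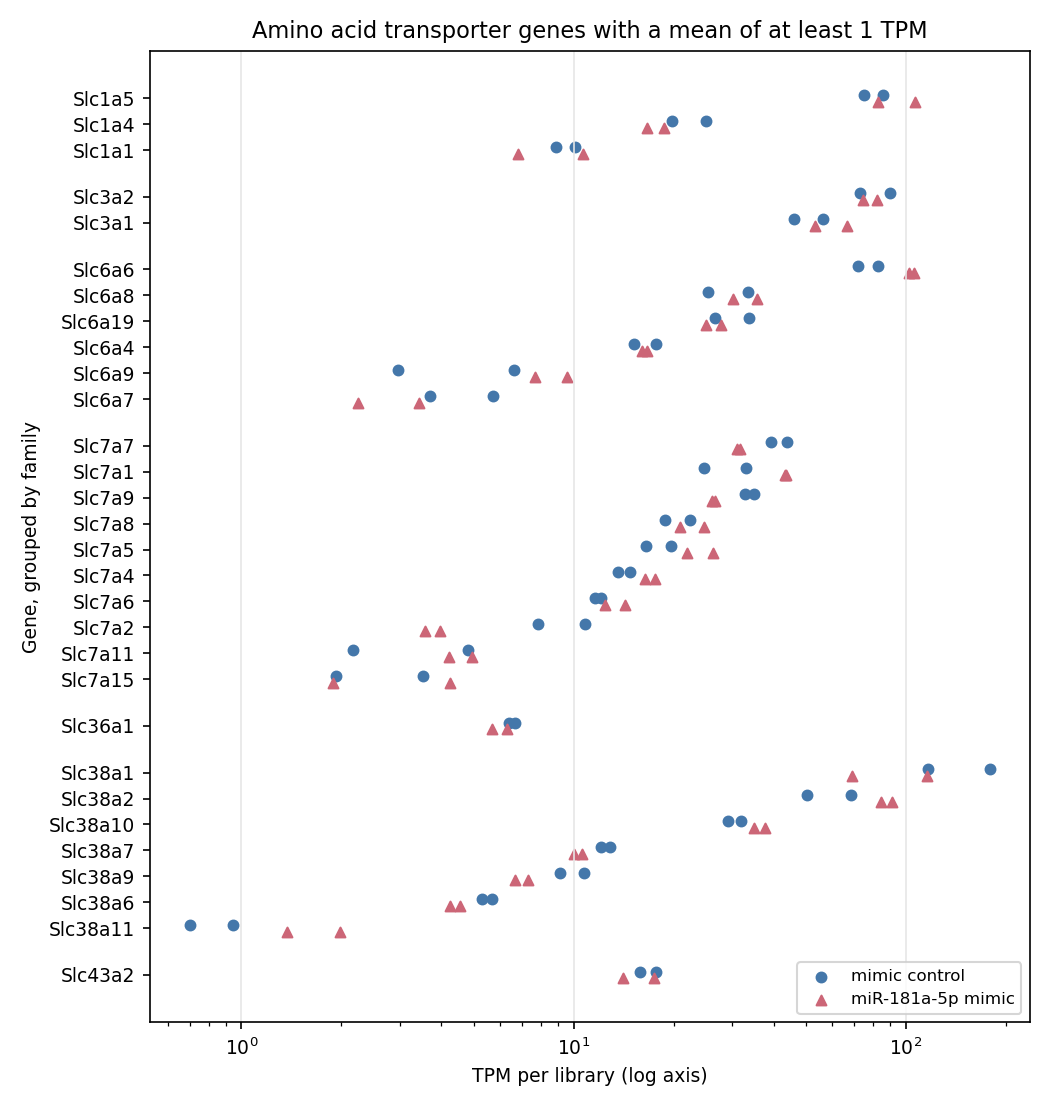
TPM in each library (horizontal axis, log scale) of the 30 transporter genes with a mean of at least 1 TPM, grouped by family (vertical axis), with circles for mimic control and triangles for miR-181a-5p mimic. Slc38a1, Slc1a5, Slc3a2, Slc6a6, Slc38a2 and Slc3a1 are highest, and Slc1a3, whose mean was 0.66 TPM, falls under the limit of the plot.

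Amino acid shortage raises several carriers through the factor ATF4, which binds the element TGATGNAA, where N is any base. RefSeq promoters (GRCm38.p6, from 250 bases before to 50 bases after the start) were searched for it on both strands. It was found in 3 of the 26 tested transporter genes that had a promoter (11.54%), in 304 of 11001 tested genes (2.76%) and in 1219 of all 27025 promoters (4.51%). Sequence beyond these promoters was not searched, so a gene without a match may hold the element elsewhere. The windows are shown 5′ to 3′ on the gene's strand with the element in capitals. All 3 genes lie on the minus strand, and a match is not a measured binding site.
Slc7a11, chr3:50443661-50443690: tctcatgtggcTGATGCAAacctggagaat
Slc7a11, chr3:50443642-50443671: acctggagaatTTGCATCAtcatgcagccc
Slc1a4, chr11:20332699-20332728: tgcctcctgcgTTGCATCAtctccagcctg
Slc7a7, chr14:54417927-54417956: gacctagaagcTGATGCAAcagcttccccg
Slc7a7, chr14:54418067-54418096: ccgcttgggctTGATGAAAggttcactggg

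None of these 3 genes was called. Slc7a11 and Slc7a7 are given above, and Slc1a4 (ASCT1), an exchanger of alanine, serine and cysteine, was at 19.8 and 25.0 TPM in the controls and 16.6 and 18.7 TPM with the mimic (log2 fold change -0.41, adjusted p = 0.107). Of 20 genes of the amino acid response, all tested, 0 rose and 1 fell, beside 1.28% and 2.29% of all genes tested. The median log2 fold change of the list was 0.02. At an unadjusted p under 0.05, 7 of the 20 passed higher and 2 lower, beside 11.8% and 13% of all genes. Among the genes that were not called were Stc2 (log2 fold change 1.02, adjusted p = 0.0782) and the serine synthesis genes Psph (0.78, adjusted p = 0.0691) and Psat1 (0.57, adjusted p = 0.0878). The gene that fell was Nupr1, a stress-induced chromatin protein, with 84.0 and 108 normalized CPM in the controls against 35.5 and 38.3 with the mimic (log2 fold change -1.38, adjusted p = 0.006 by edgeR). Atf4 itself had a log2 fold change of 0.24 (adjusted p = 0.196). Asparagine synthetase (Asns), a target of ATF4, had one of -0.04 with a 95% interval from -0.38 to 0.31.

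Of 19 further genes of amino acid transport outside the symbol rule, 16 were tested. Of these 1 rose and 1 fell, beside 1.28% and 2.29% of all genes tested. The gene that rose was Slc15a2 (PEPT2), a carrier of di- and tripeptides, with 3 and 0 counts in the controls against 276 and 284 with the mimic (adjusted p = 0.00121 by edgeR), and it passed the filter on low counts through the mimic libraries alone. Slc15a1 (PEPT1), the main peptide carrier of the brush border, had a log2 fold change of -0.07 (95% interval -0.60 to 0.46). The proline carrier Slc6a20a was at 8.14 and 10.7 normalized CPM in the controls against 5.27 and 4.33 with the mimic, a log2 fold change of -0.98 (SE 0.21) with an adjusted p of 0.0525. The aromatic amino acid carrier Slc16a10 (TAT1) had one of -0.14 (95% interval -0.38 to 0.10).

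Markers of other properties of the cultures were read from the same fit, in which 1.28% of all genes tested rose and 2.29% fell. The 9 epithelial markers were all tested and none was called, the nearest being Krt18 with a log2 fold change of -0.60 (SE 0.17, adjusted p = 0.0942). Of 14 enterocyte markers 1 rose and 2 fell. Of 5 genes of the proximal small intestine 2 fell, Onecut2 and the iron exporter Slc40a1. Of 5 tested genes of the distal small intestine 1 rose, Cubn, from 0.25 and 0.21 TPM in the controls to 1.63 and 3.86 TPM with the mimic. The list's sum was 6.79 and 11.6 TPM in the controls and 12.0 and 16.6 TPM with the mimic. Its largest part in every library was Slc51b, with a log2 fold change of 0.0011, and all 5 estimates were above 0. Fabp6, of the same list, had 0, 1, 1 and 0 counts and was not tested. Stem cell and goblet cell markers had 1 gene each that fell among 8 and 7, and Paneth, enteroendocrine and tuft cell markers had 0 called of 6, 7 and 4 tested. Of mesenchymal, leukocyte and endothelial markers 2, 3 and 1 could be tested and 0 were called, and Col1a2, Col3a1, Dcn, Cdh5 and Kdr were at 0 in every library. The part of cell composition or of intestinal region in the values of Slc7a2, Slc7a9, Slc7a7 and the other carriers was not tested.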

How the data were processed

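Organoid libraries with the miR-181a-5p mimic (replicates 3 and 4) were compared with those of the mimic control (replicates 1 and 2). The authors trimmed reads with Trimmomatic, quantified them with RSEM on GRCm38 and deposited expected counts per gene, without normalization, and TPM. The annotation release is not given in the sources used here, and labels (poly(A) enrichment) and methods (ribosomal RNA depletion) differ on the library type. In both deposited tables, columns of other samples were left out (3 in each). Expected counts were rounded and, after filterByExpr and TMM scaling, fitted by glmQLFit and glmQLFTest of edgeR 4.0.16 (R 4.3.3), with Benjamini-Hochberg adjustment over 17155 genes. Called genes have an adjusted p under 0.05. The standard error is the log2 fold change divided by the root of the F statistic. Groups that do not overlap were judged on CPM scaled by TMM factors unless TPM is named. The steps were tested on simulated data. TPM was used for levels between genes. Depth was 31104884 to 38111731 expected counts per library. With 2 libraries per group an exact permutation test cannot go below p = 0.333.

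Of 55487 gene identifiers, 55141 had a symbol. Genes named are the called members, the apical and basolateral lists and the member with the highest mean TPM of each family. Other names were chosen after values were seen. The members and all lists were chosen with earlier results of these data known. Pathway lists covered carriers outside the rule, amino acid response, sensing and use. The alternatives were RLE and no factors, 2 other filters, edgeR's exact test, DESeq2 1.42.0, limma 3.58.1 on log2(TPM + 1) and log2(TPM + 0.1), and leaving out each library. Of the tested members, 11 had counts that were not whole, from reads shared between genes. Protein sequences were not used here, and some genes of the pathway and marker lists are not reported here.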

Additional observations from a re-analysis of the deposited data

How the results depend on the processing

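The number of all genes called was 612 and of transporter genes 2. They were 604 and 2 with RLE factors, and 585 (272 higher, 313 lower, against 220 and 392) and 2 without factors. Without a filter on low counts they were 192 and 1 (Slc7a2), and with at least 10 counts in every library 555 and 1 (Slc7a2, since Slc1a3 could not be fitted). The exact test gave 1788 and 6 (Slc1a3, Slc38a2, Slc7a1, Slc7a2, Slc7a7 and Slc7a9), and DESeq2 1322 and 5 (the same but Slc7a7). With limma, all genes called were 75 on log2(TPM + 1), 27 on log2(TPM + 0.1) and 2 on log2(TPM + 1) without a filter, and transporter genes 0 in each, with 10, 9 and 10 at an unadjusted p under 0.05. These fold changes understate the change of low genes. With 1 library left out (the lone library is taken to vary like the others), all genes called ranged from 323 without mimic replicate 3 to 2326 without control replicate 2, and transporter genes from 2 to 10. The median over the transporter genes was then between -0.07 and 0.22, on both sides of 0. The log2 fold changes of Slc3a2 (-0.25 to 0.0745), Slc7a8 (-0.10 to 0.27), Slc1a1 (-0.54 to 0.0179), Slc36a1 (-0.24 to 0.0155) and Slc43a2 (-0.25 to 0.0184) changed sign, and those of the 14 other tested genes under the naming rule did not. No paired analysis was possible because the groups share no replicate number. The causes of these differences were not tested. Members with 14.03 counts or fewer in every library could not be tested at this depth.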

Other observations

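Genes that sense amino acids and genes that use them in enterocytes were read from the same fit. Of 24 genes of the mTORC1 sensing machinery, 23 were tested, 2 rose and 0 fell, beside 1.28% and 2.29% of all genes tested. The median log2 fold change of the list was 0.04. Lamtor3, a subunit of the lysosomal Ragulator complex, had 17.6 and 18.9 normalized CPM in the controls against 40.0 and 32.9 with the mimic (log2 fold change 0.9996, SE 0.14, adjusted p = 0.0145 by edgeR), and some of its reads were shared with other genes. Sesn3, a sestrin that restrains mTORC1, had 64.2 and 56.4 against 89.7 and 94.1 (log2 fold change 0.61, SE 0.11, adjusted p = 0.0311 by edgeR). The 2 groups did not overlap for either gene, as for 58.4% of all genes tested.

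Of 17 genes for the use of amino acids, 16 were tested and 0 were called by edgeR's quasi-likelihood test. At an unadjusted p under 0.05, 0 passed higher and 4 lower, beside 11.8% and 13% of all genes tested. The median log2 fold change of the 16 was -0.19. Ornithine aminotransferase (Oat) had 2275 and 2376 normalized CPM in the controls against 1638 and 1580 with the mimic (log2 fold change -0.53, adjusted p = 0.0621). Oat was named after its values were seen.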
